A study of Mus musculus with 12 samples.

Results

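The immunity-related GTPases are a family of interferon-inducible GTPases, and 8 of their mouse genes were chosen by symbol (Iigp1, Irgm1, Irgm2, Igtp, Tgtp1, Tgtp2, Ifi47 and Gm12250). A row was found for 7 of the 8 symbols among the 19434 genes of the count table, and all 7 were among the 11062 genes tested. The expression of Gm12250 was not analysed here. The counts came from CD4+ T cells of the lung, isolated by magnetic bead enrichment and cell sorting. The donors were male and female C57BL/6NJ mice, killed 48 h after aspirating Escherichia coli (2800000 colony-forming units) or the vehicle, phosphate-buffered saline (PBS). The 12 libraries fall into 4 groups of 3. Juvenile E. coli and juvenile PBS mice aspirated on day 15 of life, and neonatal E. coli and neonatal PBS mice on day 5. All groups share the strain, and the labels name no engineered allele. Each library pooled the cells of 2 juvenile or 3 neonatal mice, so n = 3 counts pools, and animals within a pool cannot be separated.

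Immunity-related GTPases defend cells against bacteria and parasites that live inside vacuoles. Interferon-gamma, sensed through a receptor that signals by JAK kinases, is their best known inducer, and type I interferons induce them as well. The family has an effector arm (Iigp1, Tgtp1, Tgtp2, Ifi47 and Gm12250), whose proteins coat the vacuole membrane, and a regulatory arm (Irgm1, Irgm2 and Igtp), whose proteins sit on the cell's own membranes and keep the effectors inactive there. In T cells, Irgm1 is known to be needed for the survival of activated CD4+ T cells during interferon-gamma responses.

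The promoters of 4 members on chromosome 11 carry the same arrangement of interferon response elements, and these are printed, with Irgm1 as a member that lacks it, because the same genes are compared through the text. The stretches of 60 bases below are from RefSeq (GRCm38.p6), read 5′ to 3′ on the gene's own strand. Capitals mark matches to the gamma-activated sequence TTCNNNGAA (GAS), an element of interferon-gamma responsive promoters, and to the core GAAANNGAA of the interferon-stimulated response element (ISRE). Irgm2 (chr11:58214882-58214941, plus strand) and Igtp (chr11:58199491-58199550, plus strand) come first, then Tgtp1 (chr11:48992295-48992354, minus strand), Tgtp2 (chr11:49064254-49064313, minus strand) and Irgm1 (chr11:48871414-48871473, minus strand).
Irgm2: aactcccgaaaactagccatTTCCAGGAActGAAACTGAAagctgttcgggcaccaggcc
Igtp: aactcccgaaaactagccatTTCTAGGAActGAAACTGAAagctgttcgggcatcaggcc
Tgtp1: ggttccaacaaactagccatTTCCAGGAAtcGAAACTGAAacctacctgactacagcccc
Tgtp2: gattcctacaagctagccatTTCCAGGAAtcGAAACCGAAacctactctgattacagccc
Irgm1: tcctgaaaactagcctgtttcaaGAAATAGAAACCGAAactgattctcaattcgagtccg

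In Irgm2, Igtp, Tgtp1 and Tgtp2 a GAS match was followed by an ISRE core match with 2 bases between them. In Irgm1 no GAS match was found, and its run of capitals holds 2 ISRE core matches that overlap each other. Both strands were searched in windows of 300 bases, from 250 before to 50 after each RefSeq start. The windows of Irgm2, Tgtp1 and Irgm1 lie inside the spans that GENCODE, a second annotation, gives these genes below. For Irgm2 the window (58214727 to 58215026) is far from the GENCODE start (58199618), which lies near that of Igtp. Ifi47 held neither match in its window, which says only that these letters are not in this stretch. Among 32851 windows of the same length, 8.30% held a GAS match, 8.56% an ISRE core match, 1.07% both, and 0.341% both with at most 20 bases between them. The windows of Irgm2 and Igtp were 91.1% identical over 271 aligned bases, and those of Tgtp1 and Tgtp2 91.4% identical over 162 aligned bases, so the 4 arrangements are not independent of each other.

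**Figure D1:**
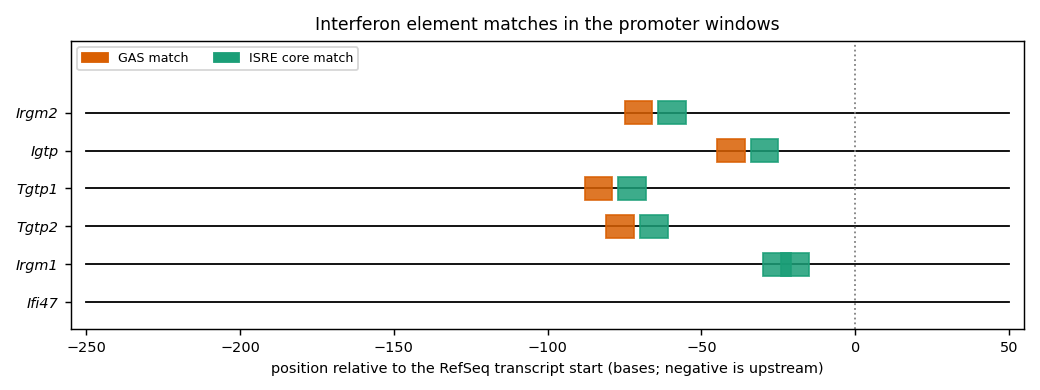
Positions of GAS matches (orange) and ISRE core matches (green) in the RefSeq promoter windows of 6 members, as bases from the transcript start, with upstream negative. The pair sits 75 to 56 bases before the start in Irgm2, 45 to 26 in Igtp, 88 to 69 in Tgtp1 and 81 to 62 in Tgtp2, Irgm1 has 2 overlapping ISRE core matches, and Ifi47 has no match.

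In GENCODE M21 (GRCm38), all 7 members with a row are protein-coding genes with 2 to 4 separate exon blocks, and 6 of them lie on chromosome 11. Irgm1 (48861968 to 48871683), Tgtp1 (48985327 to 48994172), Tgtp2 (49057194 to 49064206) and Ifi47 (49076587 to 49096974) are near each other there, the first 3 on the minus strand and Ifi47 on the plus strand. Igtp (58199556 to 58207591) and Irgm2 (58199618 to 58222782) are both on the plus strand and share 162 bases of exon. Only Iigp1, among these 7, lies on chromosome 18. Tgtp1 and Tgtp2 are near-identical copies. Of the stretches of 100 bases in their annotated transcripts, 70.3% of those of Tgtp1 also occur in Tgtp2 and 80.4% of those of Tgtp2 also occur in Tgtp1, so their separate values are uncertain. The shared portion was 3.01% of Irgm2 and 5.16% of Igtp with each other, 0.842% of Ifi47 with other genes, and 0 for Iigp1 and Irgm1. By position, 223 exon bases of Tgtp1 overlap Gm12185, and 217 of Ifi47 overlap Gm12188 and Olfr56.

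Totals assigned to genes ran from 6035445 to 8129983 counts per library, and the floor of 3 counts was worth 0.374 to 0.494 on the CPM scale (counts scaled to a library total of 1000000 with the TMM factor). No member was near that floor: the lowest count of a member in any library was the 68 counts of Iigp1 in neonatal PBS library 1. T cell markers were high throughout, with 9 markers summing to 4634 to 5009 CPM in juvenile E. coli and 5708 to 6319 CPM in juvenile PBS libraries, and to 4856 to 5138 CPM in neonatal E. coli and 4978 to 5634 CPM in neonatal PBS libraries. Of these 9, 5 fell in juveniles after E. coli (median log2 fold change -0.26) and 0 in neonates (-0.05). For comparison with this and the marker counts below, 15.4% of all tested genes rose and 9.42% fell in juveniles. In neonates 1.05% rose and 0.145% fell, and the difference of responses was called higher for 5.05%. Markers of other cells were present too. Summed over 22 genes, monocyte, macrophage and neutrophil markers ranged over 842 to 1204 CPM in juvenile E. coli and 329 to 522 CPM in juvenile PBS libraries, and over 360 to 653 CPM in neonatal E. coli and 268 to 450 CPM in neonatal PBS libraries. Of the 16 of them tested, 11 rose in juveniles after E. coli and 4 in neonates. The neutrophil granule genes Mpo, Elane and Camp were at 0 in all 3 juvenile E. coli libraries, and in the juvenile PBS libraries they and S100a9, Ly6g, Cxcr2 and Retnlg were. Ly6g and Elane were at 0 in all 3 neonatal E. coli libraries, and Ly6g, Retnlg, Elane and Camp in all 3 neonatal PBS libraries. The 13 dendritic cell and MHC class II markers, none of which was at 0 in a whole group, summed to 629 to 799 CPM in juvenile E. coli and 285 to 406 CPM in juvenile PBS libraries, and to 201 to 226 CPM in neonatal E. coli and 143 to 211 CPM in neonatal PBS libraries, and 7 of the 11 tested rose in juveniles and 0 in neonates. MHC class II genes are themselves known interferon-gamma targets. The 9 immature T cell markers summed to 882 to 993 CPM in juvenile E. coli and 709 to 1081 CPM in juvenile PBS libraries, and to 739 to 786 CPM in neonatal E. coli and 829 to 1319 CPM in neonatal PBS libraries. Lung epithelial markers summed to 96.5 to 205 CPM in juvenile E. coli and 52.4 to 54.9 CPM in juvenile PBS libraries, and to 61.1 to 178 CPM in neonatal E. coli and 59.6 to 93.4 CPM in neonatal PBS libraries. The 8 endothelial markers summed to 228 to 249 CPM in juvenile E. coli and 228 to 244 CPM in juvenile PBS libraries, where Cldn5 was at 0, and to 249 to 301 CPM in neonatal E. coli and 275 to 316 CPM in neonatal PBS libraries. The juvenile sums overlapped, while 4 of the 7 endothelial markers tested rose in juveniles and 1 fell (median 2.29), against 0 called in neonates (median -0.12), and the difference of responses was called higher for 2 (median 2.58). Of the 7 lung epithelial markers tested, 2 rose in juveniles and 0 in neonates. The part of the T cell, endothelial and epithelial markers in the members' results was not tested. CD8 markers summed to 23.5 to 133 CPM, and B cell, NK cell and fibroblast markers to at most 56.2 CPM in any library. Immune and other cells that express the same GTPases cannot be separated from T cells in such bulk libraries, and a smaller number of cells of a type and less RNA per cell cannot be told apart either.

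Together, the 7 members took 0.161% to 0.227% of all counts in juvenile E. coli libraries, against 0.0712% to 0.0775% in juvenile PBS libraries. They took 0.0729% to 0.102% in neonatal E. coli libraries, against 0.0630% to 0.0668% in neonatal PBS libraries. Summed, that was 1936 ± 356 CPM in juvenile E. coli and 753 ± 53.5 CPM in juvenile PBS libraries, and 889 ± 155 CPM in neonatal E. coli and 645 ± 12.6 CPM in neonatal PBS libraries (SD, n = 3 each).

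The first question was how the family responded to E. coli in juveniles. All 7 members rose, by edgeR's quasi-likelihood test with Benjamini-Hochberg adjustment over all tested genes, where an adjusted p under 0.05 was called. Over all tested genes 15.4% were called higher and 9.42% lower. In all 7 members every juvenile E. coli library lay above every juvenile PBS library, a separation that 20.6% of all tested genes showed in that direction. The median log2 fold change of the 7 was 1.59, and that of all tested genes -0.01.

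Among the effectors, Iigp1, whose protein loads onto vacuoles of intracellular pathogens, had the largest change. It had 314, 214 and 122 CPM in juvenile E. coli libraries 1, 2 and 3, against 20.6, 25.2 and 19.0 CPM in juvenile PBS libraries. The lowest E. coli library stood far above the highest PBS library, and the E. coli libraries differed most among themselves for this gene. Its log2 fold change was 3.33 ± 0.27 (SE), a fold of 10.04, with an edgeR adjusted p of 1.32e-06.

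Tgtp1, 1 of 2 copies of an effector named as a T cell-specific GTPase, had 127, 87.4 and 84.6 CPM in juvenile E. coli libraries, against 34.9, 33.3 and 33.3 CPM in juvenile PBS libraries. The other copy, Tgtp2, had 112, 88.1 and 71.3 CPM in juvenile E. coli libraries, against 43.8, 42.5 and 40.2 CPM in juvenile PBS libraries. Neither copy's groups overlapped, and the PBS libraries were tightly grouped. The log2 fold changes were 1.56 ± 0.18 for Tgtp1 (edgeR adjusted p = 2.24e-05) and 1.10 ± 0.15 for Tgtp2 (adjusted p = 0.000123). With the counts of both copies summed, the value was 1.32 ± 0.16 (adjusted p = 3.36e-05). The sum does not depend on how shared reads were split between the copies. Shared reads that were dropped or counted for both copies would still affect it.

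Ifi47, the effector with the highest level in juvenile PBS libraries, changed least. It had 575, 454 and 474 CPM in juvenile E. coli libraries, against 318, 358 and 292 CPM in juvenile PBS libraries. The groups did not overlap, and the log2 fold change was 0.63 ± 0.12 with an edgeR adjusted p of 0.00107.

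The 3 regulators rose by similar amounts. Irgm1, the regulator tied to T cell survival, had 211, 180 and 144 CPM in juvenile E. coli libraries, against 52.4, 69.4 and 48.6 CPM in juvenile PBS libraries. Irgm2 had 419, 377 and 345 CPM in juvenile E. coli libraries, against 133, 127 and 119 CPM in juvenile PBS libraries. Igtp had 565, 464 and 382 CPM in juvenile E. coli libraries, against 157, 146 and 144 CPM in juvenile PBS libraries. No regulator's groups overlapped, and the log2 fold changes were 1.65 ± 0.21 for Irgm1, 1.59 ± 0.12 for Irgm2 and 1.66 ± 0.12 for Igtp, with edgeR adjusted p-values of 6.13e-05, 9.05e-07 and 7.08e-07 in that order.

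**Figure D2:**
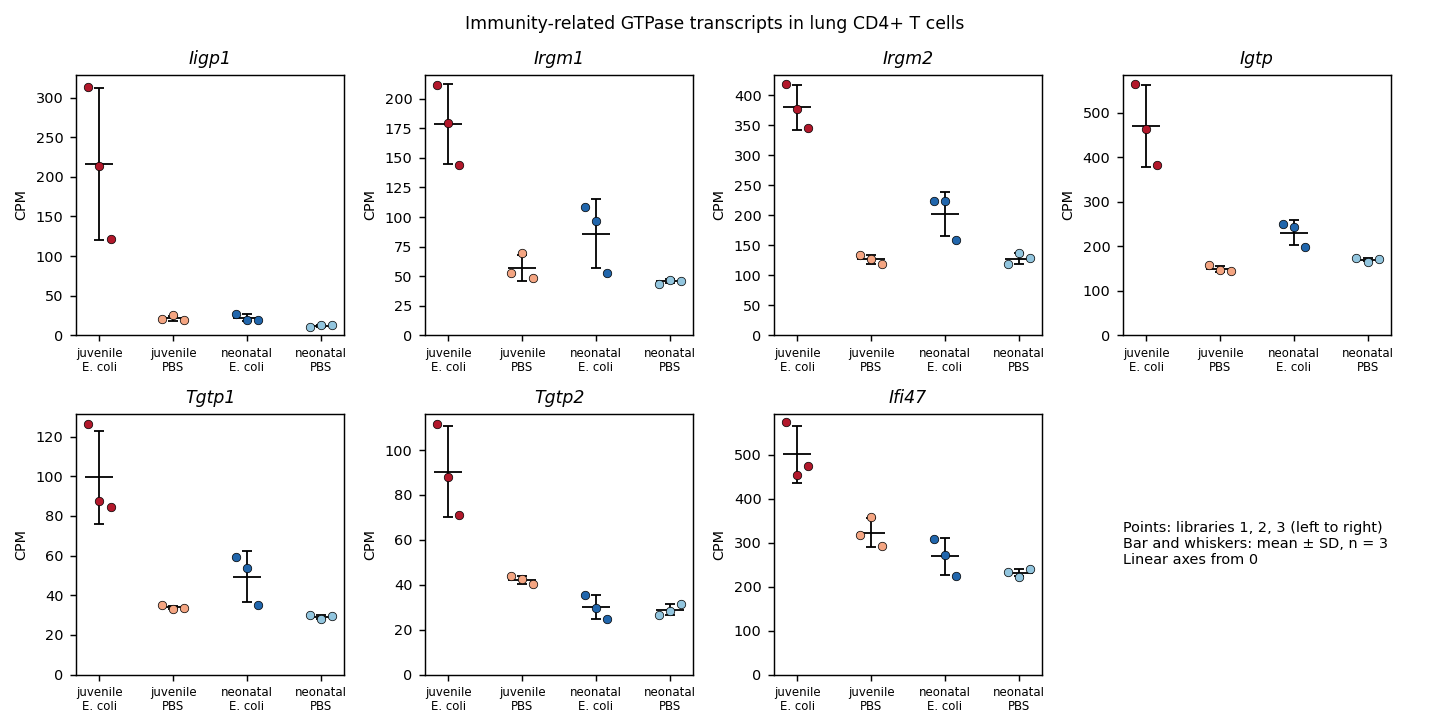
CPM (linear axis from 0) of the 7 members in each library, with 1 panel per gene, groups along the horizontal axis and the mean ± SD of 3 libraries drawn behind the points. Juvenile E. coli libraries lie above juvenile PBS libraries for every gene, while neonatal E. coli and neonatal PBS libraries overlap for Tgtp2 and Ifi47.

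The juvenile calls depended on which marker covariate was added. When the summed log level of the dendritic cell and MHC class II markers was added as a covariate, 0 of the 7 members were called by edgeR and 6 had an unadjusted p under 0.05. The log2 fold changes stayed between 0.63 and 2.94 while their standard errors grew, and adjusted p-values lay between 0.0677 and 0.666. In that fit 11 of all tested genes were called, and 908 had an unadjusted p under 0.05. The marker level moves with the groups, so its part in the result and that of the exposure cannot be told apart here. With the monocyte, macrophage and neutrophil markers as the covariate, 5 members were called, and Tgtp2 and Ifi47 were not, while 157 of all tested genes were called. With the immature T cell markers all 7 were called, and 2220 of all tested genes.

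The second question was whether the family responded in neonates. Of the 7 members 1 rose, Irgm2, where 1.05% of all tested genes were called higher and 0.145% lower. Every neonatal E. coli library lay above every neonatal PBS library for 5 members, and 11.2% of all tested genes separated in that direction. The median log2 fold change of the 7 was 0.66, and that of all tested genes was near 0.

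Irgm2 had 224, 224 and 159 CPM in neonatal E. coli libraries, against 118, 137 and 128 CPM in neonatal PBS libraries. The groups did not overlap, although neonatal E. coli library 3 stood close to the PBS libraries. The log2 fold change was 0.66 ± 0.12, with an edgeR adjusted p of 0.0109. The call rests on single libraries, since it was lost without neonatal E. coli library 1 (adjusted p = 0.0518), without neonatal E. coli library 2 (0.0759) and without neonatal PBS library 1 (0.0801). It was also lost with each of the 3 marker covariates, with adjusted p-values of 0.9996 for monocyte, macrophage and neutrophil markers, 0.0857 for dendritic cell and MHC class II markers, and 0.151 for immature T cell markers. The log2 fold changes in those fits were 0.60, 0.76 and 0.60 in the same order, with larger standard errors of 0.22, 0.16 and 0.16.

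The other regulators and Tgtp1 were also higher without passing the test. Irgm1 had 108, 96.4 and 52.7 CPM in neonatal E. coli libraries, against 43.7, 47.1 and 45.9 CPM in neonatal PBS libraries (log2 fold change 0.92 ± 0.22, edgeR adjusted p = 0.0572). Igtp had 250, 244 and 198 CPM in neonatal E. coli libraries, against 173, 165 and 171 CPM in neonatal PBS libraries (0.44 ± 0.12, adjusted p = 0.116). Tgtp1 had 59.5, 53.6 and 35.1 CPM in neonatal E. coli libraries, against 30.04, 28.1 and 29.4 CPM in neonatal PBS libraries (0.76 ± 0.18, adjusted p = 0.0596). In each of these genes the groups did not overlap and E. coli library 3 was the lowest of its group. With other tools and designs Irgm1, Igtp and Tgtp1 passed beside Irgm2, for 4 members called by DESeq2 and 4 by limma voom, and Iigp1 as well, 5 in all, when only the 2 neonatal groups were fitted. All genes called in those 3 fits were 238, 312 and 320.

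The remaining effectors changed less relative to their spread. Iigp1 had 27.2, 19.7 and 19.7 CPM in neonatal E. coli libraries, against 10.1, 12.4 and 13.1 CPM in neonatal PBS libraries (0.91 ± 0.30, adjusted p = 0.204 by edgeR), without overlap. Tgtp2 had 35.5, 29.7 and 24.9 CPM in neonatal E. coli libraries, against 26.6, 28.5 and 31.5 CPM in neonatal PBS libraries (0.06 ± 0.16, adjusted p = 0.940). Ifi47 had 309, 272 and 225 CPM in neonatal E. coli libraries, against 233, 223 and 240 CPM in neonatal PBS libraries (0.21 ± 0.12, adjusted p = 0.530). The groups overlapped for Tgtp2 and Ifi47, and the small Tgtp2 value turned negative without neonatal E. coli library 1 (-0.08). With the counts of Tgtp1 and Tgtp2 summed, the neonatal log2 fold change was 0.46 ± 0.16 (edgeR adjusted p = 0.256), between the separate values of the 2 copies.

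The third question was whether the juvenile and neonatal responses differed, which was tested as the juvenile log2 fold change minus the neonatal one. The juvenile response was larger in 4 of 7 members, where 5.05% of all tested genes were called higher and 1.94% lower. Those 4 were Iigp1 (difference 2.42 ± 0.40, edgeR adjusted p = 0.00286), Igtp (1.22 ± 0.17, 0.00128), Tgtp2 (1.04 ± 0.23, 0.0127) and Irgm2 (0.92 ± 0.17, 0.00519). The differences of Tgtp1 (0.79 ± 0.26, adjusted p = 0.0766), Irgm1 (0.74 ± 0.30, 0.161) and Ifi47 (0.42 ± 0.17, 0.140) had the same sign and did not pass. All 7 had an unadjusted edgeR p under 0.05, as did 2455 of the 11062 tested genes. With the dendritic cell and MHC class II markers as a covariate 0 of the 7 were called by edgeR, 5 had an unadjusted p under 0.05, and the differences lay between 0.42 and 2.15. Of all tested genes, 0 were called in that fit and 1007 had an unadjusted p under 0.05. The immature T cell markers as a covariate left 1 member called, Igtp (1.28 ± 0.24, edgeR adjusted p = 0.0414), and 43 of all tested genes. In that fit the differences of Iigp1 (2.56 ± 0.56), Tgtp2 (1.25 ± 0.30) and Irgm2 (1.02 ± 0.23) were as large as without the covariate or larger, and did not pass (adjusted p-values 0.0580, 0.0758 and 0.0604). With the counts of Tgtp1 and Tgtp2 summed, the difference was 0.87 ± 0.23 (adjusted p = 0.0318).

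**Figure D3:**
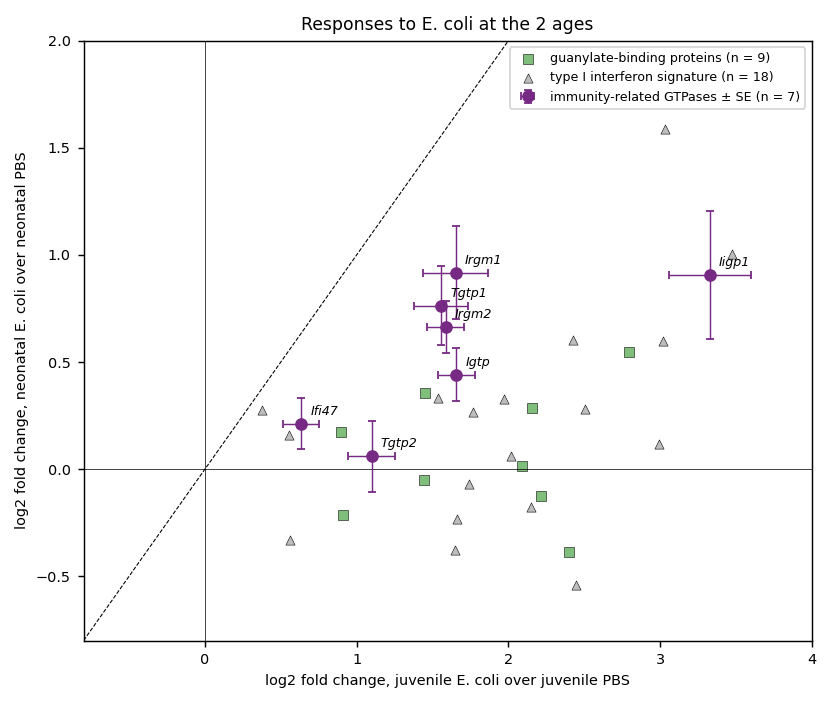
Log2 fold changes after E. coli in juveniles (horizontal axis) and neonates (vertical axis, on a different scale) for the 7 members with SE bars, 9 guanylate-binding proteins and 18 genes of the type I interferon signature. The dashed line marks equal responses, and all 7 members lie to its right, with Irgm1, Iigp1, Tgtp1 and Irgm2 higher on the neonatal axis than every guanylate-binding protein. Ifi44 (1.59) and Mx1 (1.01) of the type I interferon signature lie higher on that axis than every member. Of the plotted genes only Irgm2 was called in neonates.

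A direct comparison of the ages after E. coli gave a higher level in juveniles for all 7 members, with 11.3% of all tested genes called higher and 6.42% lower. None of the 7 overlapped between juvenile and neonatal E. coli libraries, a separation shown by 20.5% of all tested genes in that direction. This comparison uses the same E. coli libraries as those above. The log2 differences ran from 0.90 ± 0.12 in Ifi47 (edgeR adjusted p = 6.66e-05) to 3.28 ± 0.27 in Iigp1 (1.26e-06), with Tgtp2 second at 1.59 ± 0.16 (6.14e-06). Irgm1 differed by 1.05, Igtp by 1.03, Tgtp1 by 1.01 and Irgm2 by 0.91. With the dendritic cell and MHC class II markers as a covariate 0 of the 7 were called by edgeR and 1 had an unadjusted p under 0.05, while the log2 differences lay between 0.89 and 2.54 with standard errors of 0.62 to 1.59. Over all tested genes 1 was called in that fit, and 431 had an unadjusted p under 0.05.

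After PBS, the ages were closer. Only Ifi47 was called, higher in juveniles, where 1.75% of all tested genes were called higher and 2.32% lower. Ifi47 had 318, 358 and 292 CPM in juvenile PBS libraries, against 233, 223 and 240 CPM in neonatal PBS libraries (log2 difference 0.48 ± 0.12, edgeR adjusted p = 0.0320). The call was lost without juvenile PBS library 1 (edgeR adjusted p = 0.0823) or 2 (0.0654) and without neonatal PBS library 1 (0.0985), 2 (0.0929) or 3 (0.0638). Tgtp2 (0.55 ± 0.16, edgeR adjusted p = 0.0744) and Iigp1 (0.87 ± 0.30, 0.132) were also higher in juveniles without passing. The same held for Irgm1 (0.32 ± 0.22, 0.512) and Tgtp1 (0.21 ± 0.19, 0.618). Irgm2 differed by -0.01 ± 0.12 and Igtp by -0.19 ± 0.12, and the sign of the Irgm2 value changed with the scaling.

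Levels can be roughly compared between genes once divided by the length of their exons. For Tgtp1 and Tgtp2 such levels, and their place in the order below, are uncertain. Most of their stretches are shared, and how shared reads were counted is not stated. Ifi47 led in every group, with 266 ± 34.6 CPM per kilobase in juvenile E. coli libraries, 172 ± 17.8 in juvenile PBS libraries, 143 ± 22.4 in neonatal E. coli libraries and 123 ± 4.71 in neonatal PBS libraries (SD, n = 3 each). Igtp was second in every group, and its libraries overlapped those of Ifi47 in both E. coli groups but not in both PBS groups. Irgm2 and then Irgm1 followed in all 4 groups. Iigp1 was last in juvenile PBS, neonatal E. coli and neonatal PBS libraries, at 6.90 ± 1.04, 7.10 ± 1.38 and 3.79 ± 0.493 CPM per kilobase. In juvenile E. coli libraries it stood above both Tgtp copies at 69.2 ± 30.8, a level whose libraries overlapped those of Irgm1 at 77.4 ± 14.6, of Tgtp1 at 35.3 ± 8.29 and of Tgtp2 at 32.2 ± 7.24.

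The make-up of the family shifted accordingly. Iigp1 gave 10.8% ± 3.06 of the counts of the 7 members in juvenile E. coli libraries, against 2.86% ± 0.246 in juvenile PBS libraries. Ifi47 gave 26.1% ± 2.69 in juvenile E. coli libraries, against 42.8% ± 1.61 in juvenile PBS libraries. In neonates, Iigp1 gave 2.51% ± 0.362 in E. coli libraries, against 1.84% ± 0.211 in PBS libraries, and Ifi47 gave 30.3% ± 1.28 in E. coli libraries, against 36.0% ± 1.10 in PBS libraries. The groups did not overlap in any of these 4 comparisons, and each had a 2-sided exact permutation p of 0.1, the smallest that 3 libraries against 3 allow. Shares within a sum are bound to each other, so a fall of Ifi47's share does not mean fewer counts of it.

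**Figure D4:**
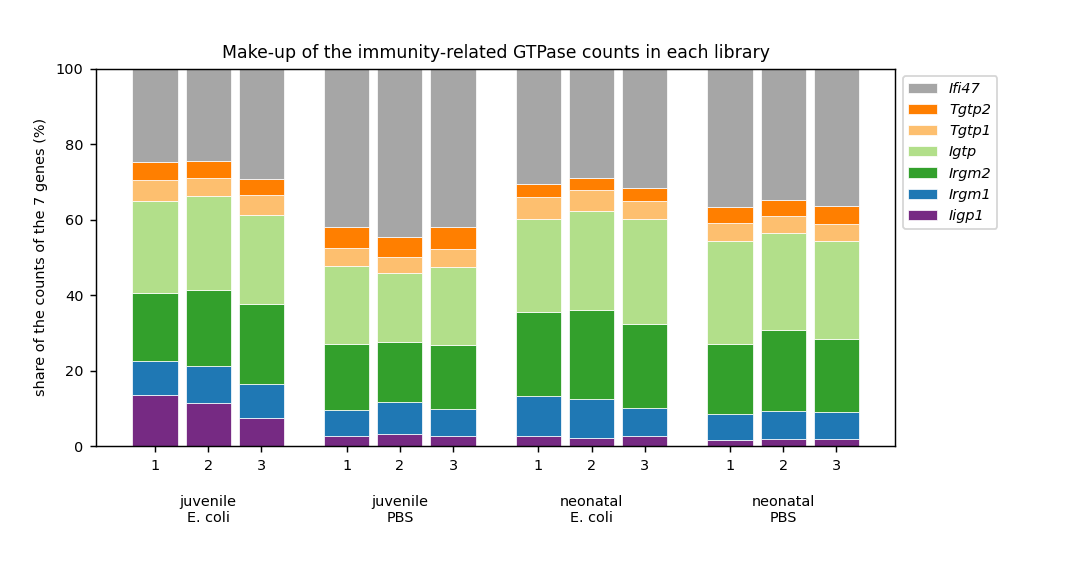
Share (%) of the counts of the 7 members given by each gene in the 12 libraries, stacked to 100%. Ifi47 (grey) gives 24.3% to 29.2% in juvenile E. coli libraries and 41.9% to 44.7% in juvenile PBS libraries, while Iigp1 (purple) gives 7.51% to 13.5% in juvenile E. coli libraries and 2.71% to 3.14% in juvenile PBS libraries.

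The 2 copies Tgtp1 and Tgtp2 did not keep a fixed ratio. Counts of Tgtp1 over counts of Tgtp2 were 1.13, 0.992 and 1.19 in juvenile E. coli libraries, against 0.796, 0.783 and 0.829 in juvenile PBS libraries. They were 1.68, 1.81 and 1.41 in neonatal E. coli libraries, against 1.13, 0.985 and 0.933 in neonatal PBS libraries. The ratio was higher after E. coli at both ages without overlap, each with an exact permutation p of 0.1, the smallest possible. How reads shared by the copies were assigned is not stated in the labels, and its part in the ratio was not tested.

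Members varied together across libraries. Within the juvenile E. coli group, library 1 was the highest for all 7 members and library 3 the lowest for 6. Within the neonatal E. coli group, library 1 was again the highest for all 7 and library 3 the lowest for 6. Whether the replicate numbers pair libraries across groups is not known here. Over the 12 libraries of the 4 groups, Pearson's r between members' log2 CPM ran from 0.793 (Igtp with Ifi47) to 0.983 (Irgm2 with Igtp). Group means were not removed, so r includes the differences between groups that genes share. Outside the family, the genes most like it by mean r with the 7 members, of 8029 candidates, were Gbp5 (0.948), Gbp4 (0.946), Stat2 (0.944), Nampt (0.944), Zbp1 (0.940) and Tap1 (0.927).

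The pathway upstream was examined through 14 listed genes of interferon-gamma signalling, 13 of them tested. In juveniles 7 rose and 1 fell, with a median log2 fold change of 0.61. In neonates 1 rose and 0 fell, with a median of 0.07, and the difference of responses was called higher for 4. Of all tested genes, 15.4% rose and 9.42% fell in juveniles, and 1.05% rose and 0.145% fell in neonates. The difference was called higher for 5.05% of them.

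Ifng, which encodes interferon-gamma itself, had 59.98, 29.0 and 38.1 CPM in juvenile E. coli libraries, against 3.46, 6.10 and 5.58 CPM in juvenile PBS libraries. It had 3.70, 5.61 and 6.19 CPM in neonatal E. coli libraries, against 3.57, 4.03 and 3.43 CPM in neonatal PBS libraries. The juvenile groups were far apart and the neonatal groups overlapped. The log2 fold change was 3.08 ± 0.28 in juveniles (edgeR adjusted p = 3.04e-06) and 0.48 ± 0.33 in neonates (adjusted p = 0.642), and the difference was 2.60 ± 0.44 (adjusted p = 0.00318). Among neonatal E. coli libraries, library 1 was the lowest for Ifng and the highest for all 7 GTPases. Among juvenile E. coli libraries, library 1 was the highest for Ifng and for all 7.

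The responses of the kinase gene Jak2 (difference 0.65, edgeR adjusted p = 0.00714) and the interferon-responsive factor gene Irf8 (0.98, adjusted p = 0.0424) also differed between the ages. Jak1 was the listed gene that fell in juveniles (-0.31, adjusted p = 0.00398).

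Irf1, which encodes a transcription factor that drives interferon-responsive genes, was the pathway gene that rose at both ages. It had 195, 198 and 248 CPM in juvenile E. coli libraries, against 72.2, 46.3 and 103 CPM in juvenile PBS libraries (log2 fold change 1.53 ± 0.21, edgeR adjusted p = 8.55e-05). It had 208, 179 and 146 CPM in neonatal E. coli libraries, against 87.3, 95.004 and 86.4 CPM in neonatal PBS libraries (0.99 ± 0.20, adjusted p = 0.0262). The groups did not overlap at either age, and the difference of responses did not pass (0.54 ± 0.29, adjusted p = 0.287). In the neonatal E. coli group its order of libraries, 1 above 2 above 3, was that of 6 of the 7 GTPases. In the juvenile E. coli group Irf1 was highest in library 3, which was the lowest for 6 of the 7. These orders of 3 libraries were not tested.

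**Figure D5:**
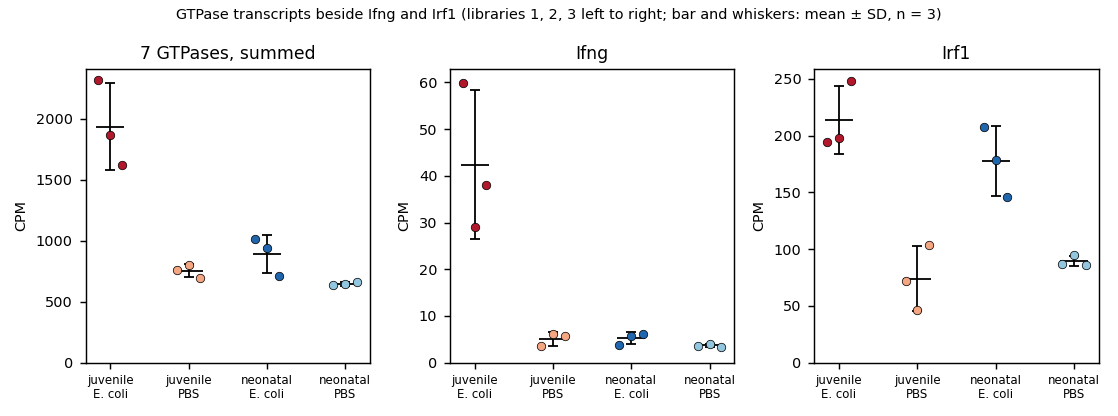
CPM (linear axes from 0) of the 7 GTPases summed and of Ifng and Irf1 in each library, with the mean ± SD of 3 libraries. Ifng stands apart in juvenile E. coli libraries alone, while Irf1 is higher in juvenile E. coli than in juvenile PBS and higher in neonatal E. coli than in neonatal PBS libraries.

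Other interferon-inducible genes also rose in juveniles. For comparison, 15.4% of all tested genes were called higher in juveniles, 1.05% in neonates and 5.05% for the difference. Of 9 tested guanylate-binding proteins, larger GTPases that act beside the family, 9 rose in juveniles (median 2.09) and 0 in neonates (median 0.02), and the difference was called for 9. Gbp6 averaged 308 CPM in juvenile E. coli and 72.4 CPM in juvenile PBS libraries, and 70.3 CPM in neonatal E. coli and 69.6 CPM in neonatal PBS libraries. Gbp3, Gbp7 and Gbp5 had juvenile log2 fold changes of 2.21, 1.45 and 2.80, and neonatal ones of -0.13, -0.05 and 0.55. Of 18 genes of the type I interferon signature, 18 rose in juveniles (median 1.99) and 0 in neonates (median 0.21), and the difference was called for 10. Oas3, Ifit1, Ifit3 and Rtp4 had juvenile log2 fold changes of 1.65, 2.15, 2.45 and 1.77, and neonatal ones of -0.38, -0.18, -0.54 and 0.26.

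Autophagy proteins govern the loading of the GTPases onto membranes. Of 14 of their genes tested, 1 rose in juveniles, Gabarap (log2 fold change 0.41, edgeR adjusted p = 0.0363), and 1 fell, Atg14 (-0.46, adjusted p = 0.0378), with a median of 0.02. Those shares, 1 of 14 in each direction, were no higher than the 15.4% higher and 9.42% lower over all tested genes. In neonates 0 were called by edgeR, and 0 had an unadjusted p under 0.05, where 1327 of the 11062 tested genes did. Map1lc3b, which encodes the membrane mark LC3B, averaged 109 CPM in juvenile E. coli and 121 CPM in juvenile PBS libraries, and 128 CPM in neonatal E. coli and 121 CPM in neonatal PBS libraries. Becn1 (juvenile 0.06, neonatal -0.16) and Atg9a (-0.25, -0.01) did not pass either.

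Of 9 other family symbols listed, a row was found for 2, Irgq and Irgc1. Irgq, a quasi-GTPase of the family, went the other way. It had 37.1, 39.6 and 34.8 CPM in juvenile E. coli libraries, against 51.3, 43.2 and 54.5 CPM in juvenile PBS libraries, and it fell by 0.42 ± 0.14 on the log2 scale (edgeR adjusted p = 0.0391). In neonates its log2 fold change was 0.13 ± 0.14 (adjusted p = 0.812). Irgc1 had 0 to 7 counts per library and was not tested.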

How the data were processed

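RNA was measured in 12 libraries of sorted lung CD4+ T cells, 3 pools per group. Per the labels, cDNA was amplified with a kit that does not mark strand and sequenced as paired ends of 100 bases. Per the submitters' processing notes, CASAVA 1.8.4 and STAR were used with GRCm38 (mm10). The deposited values are raw counts per gene symbol, whole numbers that the authors did not normalize. Counting settings, annotation and the treatment of multiply mapping reads are not stated there. As strand is not marked, reads from exon bases that genes on opposite strands share cannot be told apart. For Igtp and Irgm2, both on the plus strand, a strand mark would not separate them either.

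Genes were filtered with filterByExpr (minimum count 10, minimum total 15), which left 11062 of 19434 genes and 99.9% of counts. The test was edgeR 4.0.16 (R 4.3.3, limma 3.58.1) quasi-likelihood F on the means of the 4 groups, TMM-scaled, with no covariate, in 5 contrasts, each adjusted over all tested genes. All 12 libraries share 1 estimate of the spread. CPM use TMM-scaled totals, log2 fold changes are ± SE and other errors SD. The test was tested on simulated counts with known changes. P-values measure the spread between pools. Libraries were checked for duplicates, and every pair within a group differed by more than counting noise (chi-square per degree of freedom 3.96 to 19.9). Floors cover counting error only.

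The members and gene lists were chosen with earlier results of these data known. Named are all members, other family symbols with a row, Ifng, Irf1, up to 4 genes of smallest p for the difference of responses in each list, and the 6 genes most correlated with the members. Some results that this rule selects are not reported here. Jak1 and Gabarap were named after their values were seen. Of the lists' symbols, 13 of 14 interferon-gamma, 10 of 12 guanylate-binding, 18 of 18 type I and 14 of 14 autophagy genes had a row. Exon lengths and coordinates are from GENCODE M21, and promoters from RefSeq (6 of the 7 members analysed, and Iigp1 is not printed). Alternatives were DESeq2 1.42.0, weighted limma voom, upper-quartile or RLE scaling, a stricter filter (10 counts throughout a group) or none, a fit of the compared groups alone, a replicate block, 3 marker covariates, summed Tgtp1 and Tgtp2, and each library left out. Leaving out neonatal PBS library 1 and juvenile PBS library 2 together was chosen after seeing the data. Figures used Python 3.11.15 and matplotlib 3.10.9.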

Additional observations from a re-analysis of the deposited data

Results flagged for a closer look

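In 4 members the responses to E. coli at the 2 ages differed by a test of the difference itself, the juvenile log2 fold change minus the neonatal one. Over all tested genes 5.05% were called higher in that test. The difference was 2.42 for Iigp1 (edgeR adjusted p = 0.00286), 1.22 for Igtp (0.00128), 1.04 for Tgtp2 (0.0127) and 0.92 for Irgm2 (0.00519). In Iigp1, Igtp and Irgm2 all 3 E. coli libraries lay above all 3 PBS libraries at both ages. In Tgtp2 this held in juveniles, while neonatal E. coli and neonatal PBS libraries overlapped. Over all tested genes 20.6% separated in that direction in juveniles and 11.2% in neonates. With the dendritic cell and MHC class II covariate 0 of these differences were called, and with the immature T cell covariate that of Igtp alone. With the monocyte, macrophage and neutrophil covariate all 4 were called.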

How the results depend on the processing

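In the juvenile response and between the ages after E. coli, every member was called under all alternatives without a marker covariate, with Tgtp1 and Tgtp2 counted once where summed. With the dendritic cell and MHC class II covariate 0 members were called in each of the 5 contrasts (edgeR; 6, 4, 5, 1 and 0 at an unadjusted p under 0.05, for the juvenile response, the neonatal response, their difference, age after E. coli and age after PBS). All genes called were then 11, 24, 0, 1 and 1, against 2747, 132, 774, 1964 and 451 without it. All genes at an unadjusted p under 0.05 were 908, 1058, 1007, 431 and 625, against 4089, 1327, 2455, 3415 and 1973 without it. The marker level moves with the groups, so marker level and exposure cannot be told apart. The monocyte, macrophage and neutrophil covariate left 157, 0 and 1285 genes for the juvenile response, the neonatal response and age after E. coli, and 0 members for the neonatal response (2 at an unadjusted p under 0.05, and 430 of all genes). It left 5, 4, 7 and 1 members for the juvenile response, the difference, age after E. coli and age after PBS. All genes called for the difference and age after PBS were 681 and 341. The immature T cell covariate left 74, 43 and 663 genes for the neonatal response, the difference and age after E. coli, with 0, 1 and 6 members, and 0 members for age after PBS (3 at an unadjusted p under 0.05). For age after PBS 381 of all genes were called, and 1958 had an unadjusted p under 0.05. For the juvenile response this covariate left all 7 members and 2220 genes.

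For the neonatal response, where 1 member was called, upper-quartile scaling gave 2, no filter 3, DESeq2 and limma voom 4 each and only the groups compared 5. Without neonatal PBS library 1 and juvenile PBS library 2 it was 0 (5 at an unadjusted p under 0.05). Of all genes 116 were then called, and 1541 had an unadjusted p under 0.05. For age after PBS, 2 were called with DESeq2, limma voom, no filter and only the groups compared, and 0 without those 2 libraries. All genes called were 4480, 312, 2300, 3810 and 927 with limma voom in the order above, 238 and 729 with DESeq2, and 320 and 280 with only the groups compared (neonatal response and age after PBS). With no filter they were 181 and 597 for the same 2 contrasts. They were 137 with upper-quartile scaling for the neonatal response, and 365 without those 2 libraries for age after PBS. The causes were not tested. Upper-quartile scaling split the juvenile calls 1468 higher and 1415 lower, against 1705 and 1042.

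Leaving out 1 library gave 7 to 7 members called in the juvenile response, 0 to 5 in neonates, 4 to 5 for the difference, 7 to 7 for age after E. coli and 0 to 3 for age after PBS. All genes called ranged over 1656 to 3204, 55 to 238, 368 to 1553, 1108 to 2637 and 177 to 671. In neonates, 0 members were called without neonatal E. coli library 1 or 2 or neonatal PBS library 1, 3 without neonatal E. coli library 3, juvenile E. coli library 1 or juvenile PBS library 2, and 5 without juvenile E. coli library 3.

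The Irgm2 difference after PBS, -0.01, turned to 0.00535 with upper-quartile scaling, 0.0240 with limma voom, 0.0146 with no filter and 0.346 with the dendritic cell covariate, and ranged over -0.0520 to 0.0656 with 1 library left out. The neonatal Tgtp2 value, 0.06, turned to -0.0876 with the immature T cell covariate, and ranged over -0.0753 to 0.175 with 1 library left out, the lowest without neonatal E. coli library 1.

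Whether replicate numbers pair the libraries across groups is not known here. Deviations of same-numbered libraries from their group means correlated between -0.18 and 0.22 over the tested genes. Differently numbered libraries were not compared, so this cannot exclude a pairing. With a replicate block, 7, 3, 5, 7 and 1 members were called in the order above, and 2568, 106, 645, 1780 and 416 genes.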
